A study of Medicago sativa with 86 samples.

Results

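These 80 genes are the ones whose mean level in leaves of ineffective Agate alfalfa stood furthest above every other line of the study. Of the 49095 gene identifiers in the count table, 16039 had a mean CPM of at least 2 over the 85 grouped libraries, and the members are the top 80 of those. CPM, the usual depth-scaled count, is a gene's count relative to the total of its library, and levels were put on a log2(CPM + 1) scale. The 6 nitrate and CO2 groups of a line were weighted equally to give a line mean, and a gene's score is its line mean in ineffective Agate minus the highest of its other 3 line means. The score chose the members, so every difference between lines given here is a description without a test. In bulk leaf RNA, fewer cells of a type and less RNA per cell cannot be told apart.

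The study concerns nitrogen fixation and the balance of carbon and nitrogen in plants under elevated CO2. Its leaf mRNA libraries come from ineffective Agate (21 libraries), effective Agate (22), ineffective Saranac (21) and effective Saranac (21), where Agate and Saranac are alfalfa (Medicago sativa) cultivars and the class gives their nitrogen-fixing capability. All plants received rhizobium, a weekly feed of 6, 10 or 16 mM KNO3 in diluted Hoagland solution, and air at 600 or 420 ppm CO2, which gives 24 groups of 3 or 4 libraries. The sources used here do not state plant age, whether ineffective fixation is a trait of plant, bacterium or both, or whether a library is 1 plant, so all spread and p-values refer to these libraries. Each CO2 level had its own chamber or chambers, and a chamber difference cannot be told apart from a CO2 difference.

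Alfalfa, like other legumes, houses rhizobia in root nodules, where the bacteria reduce nitrogen gas to ammonia in exchange for sugars made in the leaf. Where nodules do not fix nitrogen, the plant depends on nitrate from the soil. Alfalfa cultivars are populations of outcrossing plants, and plants of the same cultivar can carry different alleles of a gene. The reference table of gene names holds 0 of the 49095 identifiers, and the count table gives no names, so members are given by identifier, with no role, and no leaf marker could be checked. Libraries held 13543800 to 25910000 counted reads (median 19895900).

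The score ran from 2.79 for MsG0480021827.01 down to 0.999 for MsG0780036216.01, with a median of 1.19. These are folds of 6.93, 2.00 and 2.28 on the CPM + 1 scale. The median score of all 16039 genes was -0.08, and 5872 of them scored above 0. Scores of at least 2 were reached by 4 members and scores of at least 1.5 by 14.

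The end of the list lies in a continuous run of scores. Just inside it were MsG0480021506.01 at 1.00 (median 8.88 CPM over the ineffective Agate libraries and 3.18 CPM over the libraries of the other lines), MsG0580024470.01 at 1.00 (5.55 and 1.33 CPM) and MsG0780036216.01 at 0.999 (4.90 and 0.913 CPM). Just outside it were MsG0380015177.01 at 0.993 (40.6 and 9.66 CPM), MsG0580029421.01 at 0.991 (10.5 and 4.78 CPM) and MsG0680031493.01 at 0.989 (15.8 and 5.68 CPM). The genes on either side of the border were alike in score and differed in abundance.

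The 6 members of highest score reached their line mean in different ways. Line values below are the lowest, median and highest library. The leading member, MsG0480021827.01, had 0, 45.4 and 91.0 CPM in ineffective Agate, against 0, 0 and 85.1 CPM in effective Agate, 0, 0.220 and 68.1 CPM in ineffective Saranac and 0, 0 and 33.2 CPM in effective Saranac. The ranges overlapped, and the lines differed in how many libraries held the transcript. It reached 1 CPM in 17 of 21 ineffective Agate libraries, 6 of 22 effective Agate libraries, 6 of 21 ineffective Saranac libraries and 7 of 21 effective Saranac libraries.

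For the next member, MsG0480023458.01, the level itself stood apart. It had 0.320, 10.7 and 30.4 CPM in ineffective Agate, against 0.158, 0.480 and 4.11 CPM in effective Agate, 0, 0.264 and 0.894 CPM in ineffective Saranac and 0.155, 0.479 and 7.49 CPM in effective Saranac. The median of ineffective Agate lay above every library of the other lines. In ineffective Agate 20 of 21 libraries reached 1 CPM, and the exception was replicate 1 at 16 mM and 420 ppm with 0.320 CPM. Over the genes tested, that library strayed most from its group mean, with a residual variance of 2.08 against a median of 0.868 over all libraries. MsG0480023458.01 reached 1 CPM in 3 of 22 effective Agate libraries, no library of ineffective Saranac and 6 of 21 effective Saranac libraries.

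MsG0580027678.01 was the most abundant member in ineffective Agate, with a mean of 1120 ± 1182 CPM (SD, n = 21). It also varied most between libraries of the same group, with a pooled SD of 3.07 on the log2(CPM + 1) scale. It had 14.7, 702 and 3105 CPM in ineffective Agate, against 14.4, 24.6 and 2683 CPM in effective Agate, 9.77, 20.4 and 32.996 CPM in ineffective Saranac and 15.5, 21.9 and 2563 CPM in effective Saranac. Its low libraries were at a like level in all 4 lines, and the lines differed in how many high libraries they held.

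MsG0580028287.01 had 0.107, 10.7 and 39.2 CPM in ineffective Agate, against 0, 0.992 and 11.8 CPM in effective Agate, 0, 0.748 and 9.89 CPM in ineffective Saranac and 0.0530, 1.23 and 7.02 CPM in effective Saranac. The lines overlapped, and 19 of 21 ineffective Agate libraries reached 1 CPM. MsG0180005882.01 had 0, 5.59 and 234 CPM in ineffective Agate, against 0, 0.0250 and 1.13 CPM in effective Agate, 0, 0 and 0.112 CPM in ineffective Saranac and 0, 0 and 67.5 CPM in effective Saranac. It was at 0 in 5 of 21 ineffective Agate libraries, reached 1 CPM in 14 of them, and reached 1 CPM in 1 of 22 effective Agate, 0 of 21 ineffective Saranac and 5 of 21 effective Saranac libraries.

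MsG0180000934.01 was the steadiest of the 6. It had 3.54, 15.6 and 28.8 CPM in ineffective Agate, against 0, 2.496 and 11.8 CPM in effective Agate, 0.188, 0.878 and 5.28 CPM in ineffective Saranac and 0, 2.44 and 13.1 CPM in effective Saranac. All 21 ineffective Agate libraries reached 1 CPM, their pooled SD was 0.709, and their median lay above every library of the other lines although the ranges overlapped. The member of least spread was MsG0480022946.01, of rank 76, with a pooled SD of 0.477. It had 4.92, 10.5 and 20.7 CPM in ineffective Agate, against 0.519, 3.64 and 25.8 CPM in effective Agate, 0.125, 1.01 and 5.36 CPM in ineffective Saranac and 0.953, 2.99 and 13.6 CPM in effective Saranac.

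**Figure D1:**
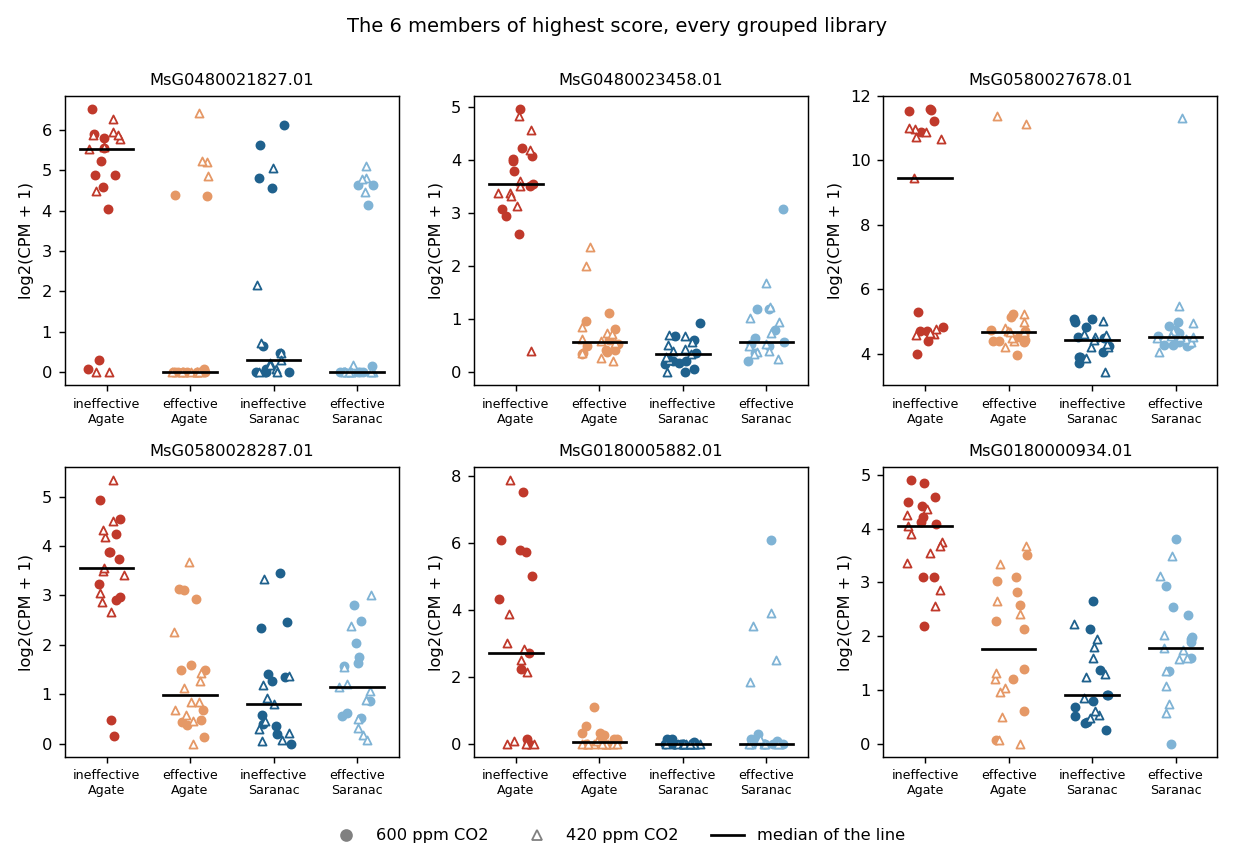
Level of the 6 members of highest score in every grouped library, as log2(CPM + 1), by line with ineffective Agate at the left. Filled circles are libraries at 600 ppm CO2, open triangles libraries at 420 ppm, and black bars the median of the line. MsG0480021827.01 and MsG0580027678.01 fall into high and low libraries, while MsG0180000934.01 forms 1 cloud per line.

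Across the list, the median library of ineffective Agate held 0.380 to 702 CPM of a member, with a median over members of 10.7 CPM. The same median over members was 2.09 CPM in effective Agate, 1.14 CPM in ineffective Saranac and 1.11 CPM in effective Saranac. In ineffective Agate the median library passed 10 CPM for 43 members and 100 CPM for 4, so the list is made of genes of low to middle abundance. Averaged over the 80 members, log2(CPM + 1) was 2.99 to 4.21 per library in ineffective Agate, 1.53 to 2.49 in effective Agate, 1.22 to 2.25 in ineffective Saranac and 1.45 to 2.27 in effective Saranac. Every ineffective Agate library thus lay above all others in this average, which follows from how the members were chosen.

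Single members did not separate the lines in this way. None of the 80 had all its ineffective Agate libraries above every library of the other lines, and neither did any of the 16039 genes (0%). The median of ineffective Agate lay above every other library for 4 members, and for 9 of the 16039 genes (0.0561%). Beside MsG0480023458.01 and MsG0180000934.01 these were MsG0580029874.01 and MsG0880042981.01, named after their values were seen. Against ineffective Saranac alone, 1 member had no overlap, the only such gene among the 16039 (0.00623%). This was MsG0480022878.01, with 17.1, 45.4 and 111 CPM in ineffective Agate and 0, 2.89 and 12.1 CPM in ineffective Saranac, but 1.56, 21.4 and 184 CPM in effective Agate. No member was free of overlap with effective Agate (0% of the genes) or with effective Saranac (0% of the genes). Both comparisons used the contrast that chose the members, so nothing is read from these shares.

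Among the other lines the order of the line means was mixed. The next line after ineffective Agate was effective Saranac for 33 members, effective Agate for 30 and ineffective Saranac for 17. The lowest line was ineffective Saranac for 40 members, effective Agate for 22 and effective Saranac for 18. The members therefore share neither a cultivar order nor a fixation order below the top line.

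**Figure D2:**
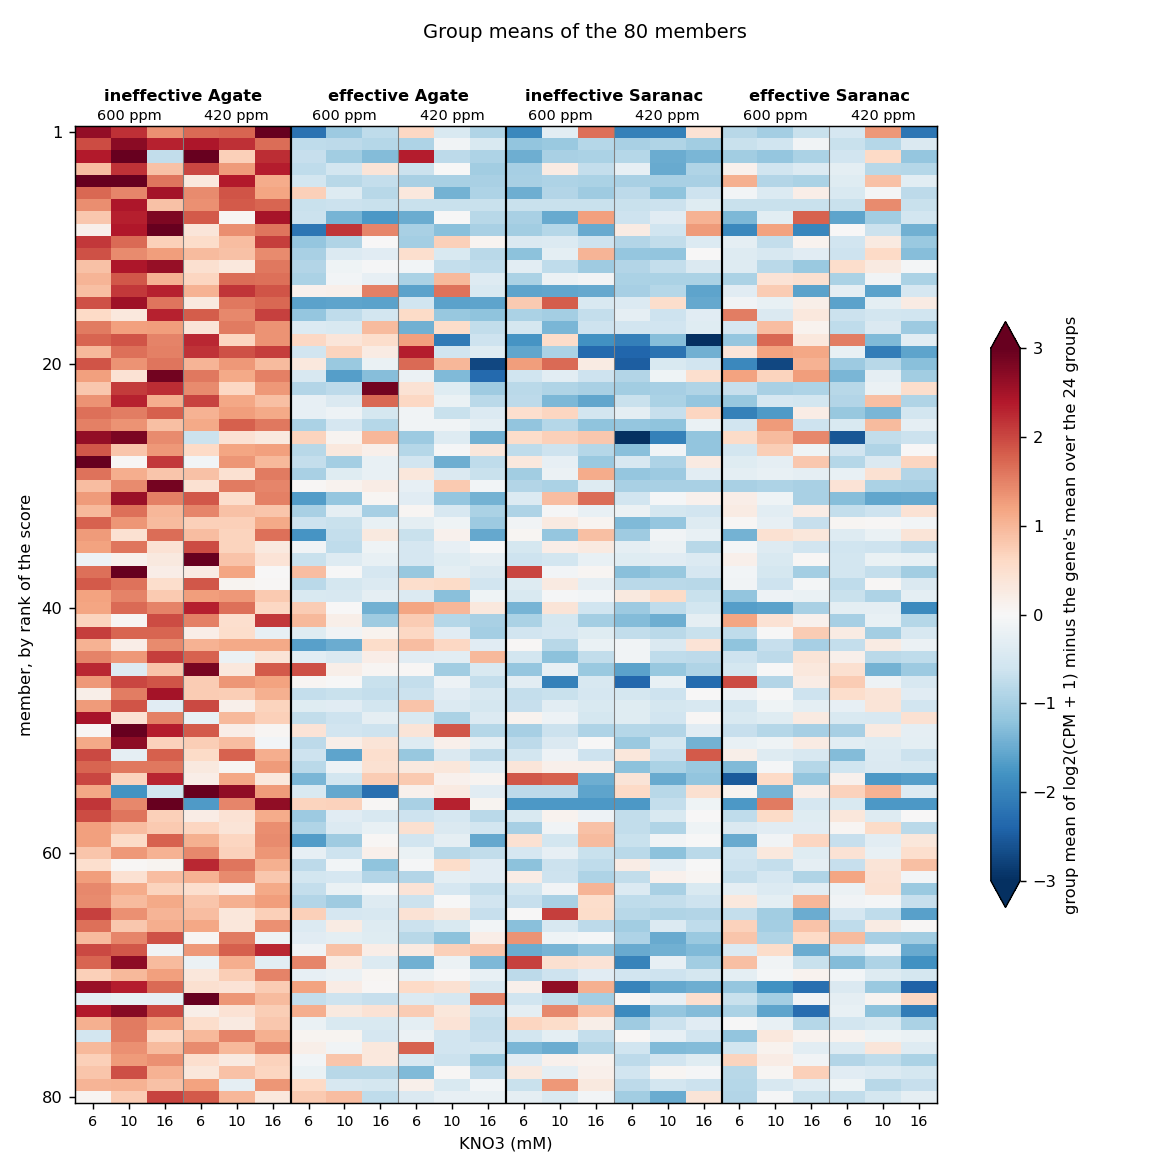
Group means of the 80 members, 1 row per member by rank of the score and 1 column per group, as log2(CPM + 1) minus the gene's mean over the 24 groups. Within each line the 600 ppm groups stand left of the 420 ppm groups, each at 6, 10 and 16 mM KNO3. The 6 columns of ineffective Agate are mostly red, while single groups of other lines reach the same colours for single members.

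Detection differed between the lines as well as level, which follows from how the members were chosen, and nothing is read from it. The number of ineffective Agate libraries in which a member reached 1 CPM had a median over members of 20 of 21. The medians were 14 of 22 in effective Agate, 12 of 21 in ineffective Saranac and 11.5 of 21 in effective Saranac. In ineffective Agate 34 members reached 1 CPM in every library and 60 in at least 18, and the fewest was 10. Of the 64 libraries of the other lines, fewer than 32 reached 1 CPM for 33 members and fewer than 16 for 11 members, while all 64 did for 8 members.

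Libraries of the same group differed more for these genes than for most. The pooled SD within groups had a median over members of 1.13 in ineffective Agate, 1.11 in effective Agate, 0.903 in ineffective Saranac and 1.08 in effective Saranac, on the log2(CPM + 1) scale. Over all 16039 genes it was 0.505, 0.447, 0.455 and 0.442 in the same lines. In ineffective Agate 78 of the 80 members lay above the median of all genes. The larger spread was also present in the lines where the members were low, and 38 members had a larger pooled SD in ineffective Agate than in each other line. These genes were not matched for level. In ineffective Agate log2(CPM + 1) averaged 3.72 over the members and 4.22 over all 16039 genes at 600 ppm, and 3.44 and 3.91 at 420 ppm. The part of level and of the choice of members in this spread was not tested. A single library held a median of 13.4% of a member's CPM summed over ineffective Agate, and more than 25% for 11 members.

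Some members fell into high and low libraries with an empty range between. For each gene the libraries were ordered and the widest gap on the log2(CPM + 1) scale with at least 5 of the 85 libraries on each side was taken, a measure chosen after the values were seen. A gap of at least 2 units was found for 4 members, which is 5% of them, and for 40 of the 16039 genes, or 0.249%. The median widest gap was 0.456 for the members and 0.142 for all genes. The members were chosen for a difference between lines, which can itself widen a gap, so these shares are not a test.

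The widest gap, 3.97 units, belonged to MsG0580027678.01, which had no library between 43.9 and 702 CPM. Above it were 11 of 21 ineffective Agate libraries, 2 of 22 effective Agate libraries, no ineffective Saranac library and 1 of 21 effective Saranac libraries. Of the high ineffective Agate libraries, 5 were among the 11 at 600 ppm and 6 among the 10 at 420 ppm. MsG0880045816.01 had no library between 0.0408 and 7.34 CPM, with 15 of 21 ineffective Agate, 11 of 22 effective Agate, 2 of 21 ineffective Saranac and 5 of 21 effective Saranac libraries above the gap. MsG0180005083.01 had none between 0.508 and 10.5 CPM, with 14, 1, 8 and 6 libraries of these lines above it.

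MsG0380016390.01 differed from these in that all 21 ineffective Agate libraries were high. It had 17.3, 43.3 and 88.9 CPM in ineffective Agate, against 0, 33.04 and 74.6 CPM in effective Agate, 0.108, 22.8 and 83.7 CPM in ineffective Saranac and 0, 10.9 and 50.6 CPM in effective Saranac. No library lay between 0.276 and 6.66 CPM, and 6 of 22 effective Agate, 5 of 21 ineffective Saranac and 8 of 21 effective Saranac libraries lay below.

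**Figure D3:**
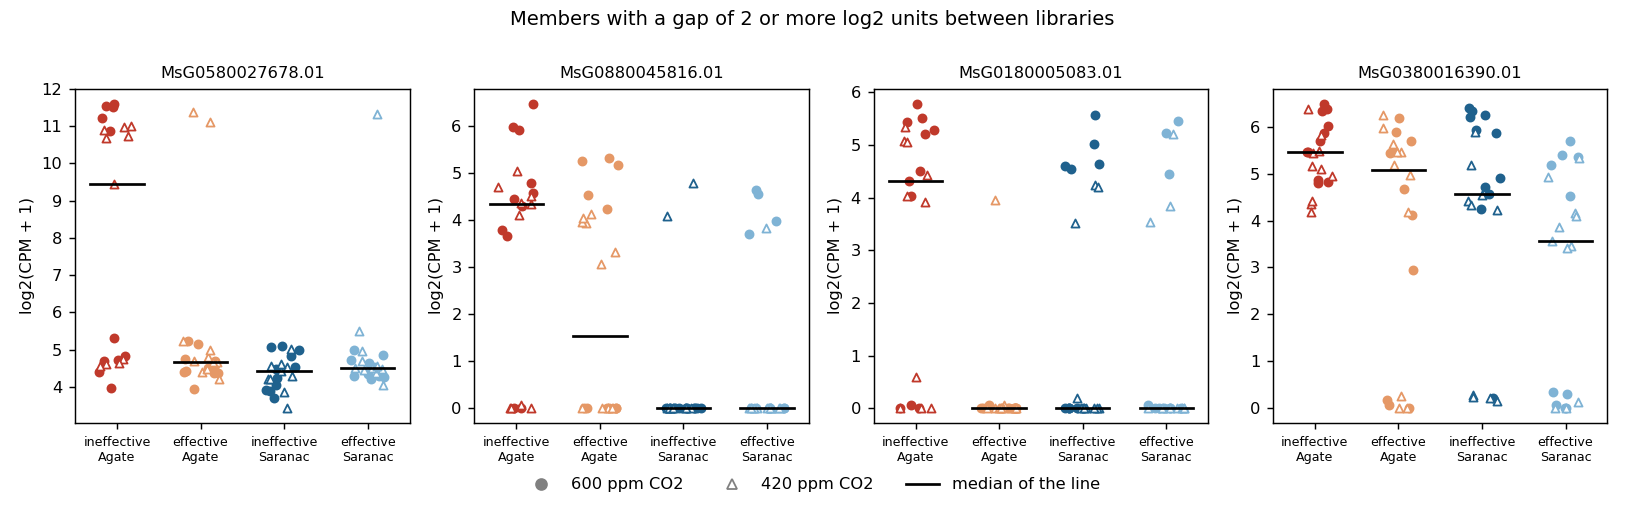
The 4 members with an empty range of at least 2 log2 units between libraries, as log2(CPM + 1) by line with ineffective Agate at the left. Filled circles are libraries at 600 ppm CO2, open triangles libraries at 420 ppm, and black bars the median of the line. High and low libraries occur at both CO2 levels, and MsG0380016390.01 has no low library in ineffective Agate.

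A set of 5 members went up and down together from library to library. Deviations of log2(CPM + 1) from the group means were correlated over the 21 ineffective Agate libraries, and pairs with r above 0.85, a bound set after the values were seen, linked 16 members into 6 sets. The set that holds the leading member MsG0480021827.01 also holds MsG0480021797.01, MsG0480022431.01, MsG0480021393.01 and MsG0380015343.01. Their pairwise r was 0.855 to 0.969 in ineffective Agate and 0.920 to 0.971 over the 64 libraries of the other lines, which the sets were not built on. Libraries share depth and scaling across genes, and no p is attached to these values.

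The widest gaps of 4 of these genes separated the same libraries. For MsG0480021827.01, MsG0480021797.01, MsG0480022431.01 and MsG0380015343.01 the gap left 35 libraries above, and they were the same 35 for all 4 genes: 17 of ineffective Agate, 6 of effective Agate, 5 of ineffective Saranac and 7 of effective Saranac. For MsG0480021393.01 the gap left 32 above, all of them among the 35. The low state differed between the genes: MsG0480021827.01 was at 3.49 CPM or less in the other 50 libraries and at 15.5 CPM or more in the 35, while MsG0380015343.01 was at 25.2 CPM or less in the 50 and at 49.1 CPM or more in the 35.

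In ineffective Agate 4 libraries lay below the gap that 4 of these genes share. At 600 ppm they were replicate 4 at 16 mM and replicate 1 at 10 mM. At 420 ppm they were replicate 4 at 10 mM and replicate 3 at 6 mM. In that order, MsG0480021827.01 was at 0.0559, 0.219, 0 and 0 CPM in the 4 libraries, and MsG0380015343.01 at 16.99, 22.2, 10.7 and 13.1 CPM. The lowest of the other 17 libraries held 15.5 CPM of MsG0480021827.01 and 52.1 CPM of MsG0380015343.01. These 4 libraries come from different nitrate and CO2 groups. MsG0480021393.01 was below its own gap also in replicate 1 at 10 mM and 420 ppm, with 1.90 CPM.

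**Figure D4:**
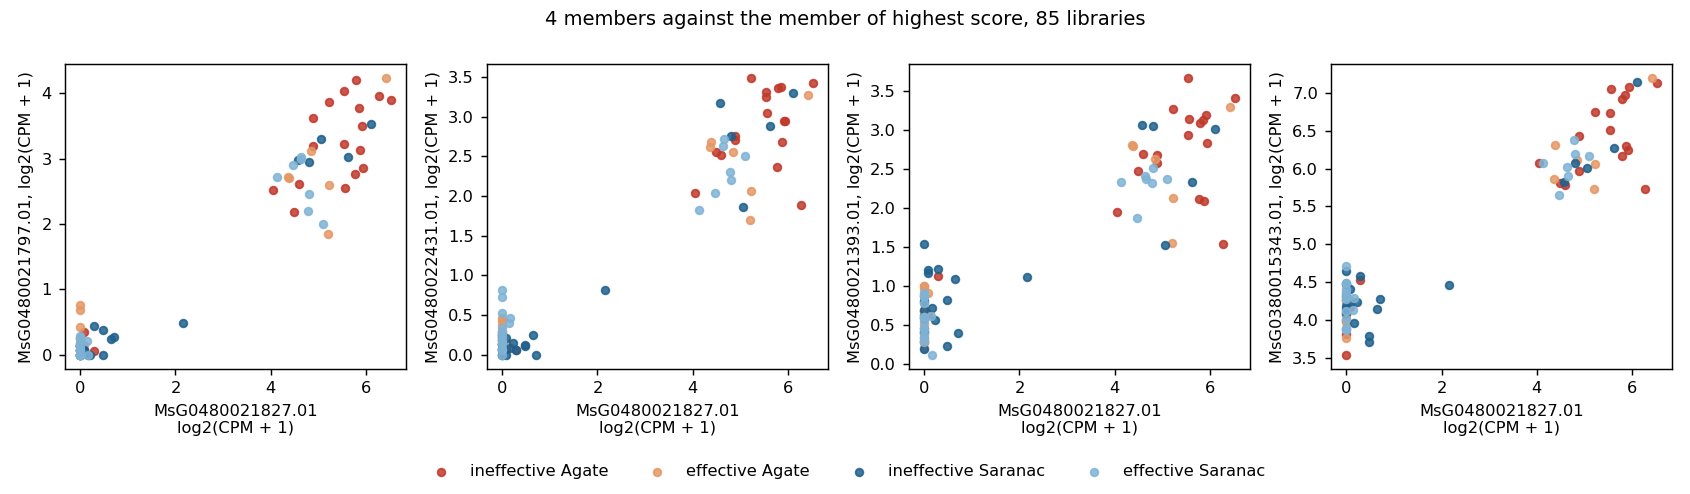
Level of 4 members against MsG0480021827.01 in the 85 grouped libraries, both axes as log2(CPM + 1), coloured by line. Each panel shows a low and a high group of libraries with few between, and all 4 lines occur in both groups. The widest gaps left the same 35 libraries above, except for MsG0480021393.01, whose gap left 32 of them.

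The other sets were smaller. MsG0580027678.01 and MsG0880044443.01 had an r of 0.980 in ineffective Agate and 0.922 over the other lines, and their widest gaps left the same 14 libraries above. MsG0880044443.01 was far less abundant, with 0.368, 3.84 and 18.2 CPM in ineffective Agate, against 0.355, 0.821 and 14.5 CPM in effective Agate, 0.351, 0.748 and 1.52 CPM in ineffective Saranac and 0.358, 0.975 and 20.8 CPM in effective Saranac. The ranges of the lines overlapped. MsG0180005025.01 and MsG0180005022.01, whose identifier numbers lie 3 apart, had an r of 0.976 in ineffective Agate and 0.951 elsewhere. MsG0580024443.01 and MsG0380015192.01 had an r of 0.942 and 0.914.

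In contrast to these, 2 sets held together mainly in ineffective Agate. MsG0180005466.01, MsG0180005083.01 and MsG0580029874.01 had pairwise r of 0.814 to 0.953 in ineffective Agate and of -0.102 to 0.369 over the other lines. MsG0880045645.01 and MsG0580024470.01 had an r of 0.940 in ineffective Agate and 0.540 elsewhere. The difference between these correlations was not tested, since the sets were chosen on the values in ineffective Agate. Over all 3160 pairs of members the median r in ineffective Agate was 0.0200, against 0.0698 over all pairs of the 16039 genes, and r passed 0.5 in 6.96% of member pairs and 8.37% of all pairs. As a whole the members did not vary together more than other genes.

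The identifiers of the members were uneven. The 2 digits after MsG were 04 in 19 members, or 23.8%, against 2245 of the 16039 genes, and 18 members, or 22.5%, carried numbers of 21393 to 23590 behind those digits, a range that holds 6.57% of the genes and was chosen after the members were seen. Among lists of 80 built in the same way, the range held 15 genes lowest in ineffective Agate, 17 lowest and 8 highest in ineffective Saranac, and 2 to 5 of the genes highest or lowest in either effective line. All of the set of 5 except MsG0380015343.01 lie in this range. The count table gives no positions, so the identifiers are not read as places in the genome. Only 4 pairs of members had numbers within 10 of each other, and genes that share reads with a near-identical copy cannot be told apart from these counts.

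The members were also scored at each CO2 level alone. With no filter on level, 79 scored above 0 at 600 ppm, 80 at 420 ppm and 79 at both. As both levels entered the choice, lists were also built from each level and scored at the other, there with no filter on level, a setting chosen after the data were seen. The 80 genes chosen at 600 ppm had a median score of 1.37 at 600 ppm and of 0.66 at 420 ppm, where 67 of the 80 were above 0. The 80 chosen at 420 ppm had a median score of 1.30 at 420 ppm and of 0.67 at 600 ppm, where 61 of the 80 were above 0. Of the 16039 genes 35.7% scored above 0 at 420 ppm and 32.04% at 600 ppm, with medians of -0.10 and -0.13. The lists shared 25 genes, 31.2% of each. Each list scored lower in the libraries that were not used to choose it than in those that were.

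The CO2 response inside ineffective Agate was not used by the score, which weights both levels equally. It was tested with edgeR's quasi-likelihood test across 24386 genes with Benjamini-Hochberg adjustment, a gene being called changed at an adjusted p under 0.05. The filter on mean CPM did use the levels. A mean of 2 CPM was reached by 77 members over the 600 ppm libraries alone and by 78 over the 420 ppm libraries alone. MsG0180002222.01, MsG0380013179.01 and MsG0480022344.01 did not reach it at 600 ppm, so their falls there are not free of the filter. The 600 ppm level changed 6 of the 80 members in ineffective Agate: 2 rose and 4 fell. That is 7.50% of the members, against 17.4% of all genes tested. The median log2 fold change was 0.01 over the members and -0.01 over all genes. Of all genes 7.13% rose and 10.3% fell. In effective Agate 7 members were called (2 rose, 5 fell), with a background of 15.1% (7.93% rose, 7.19% fell). In ineffective Saranac 12 were called (9 rose, 3 fell), with a background of 25.2% (12.6% rose, 12.6% fell). In effective Saranac 9 were called (4 rose, 5 fell), with a background of 18.7% (9.67% rose, 8.98% fell). In each line the share of members called was below that of all genes, beside the larger spread of the members within groups given above, and the part of that spread in these counts was not tested. With a replicate number left out, the background is the share of all genes called in the same fit. In ineffective Agate 3 members were called without replicate 2 and 3 without replicate 4, with backgrounds of 9.68% and 6.43%. In effective Agate 1 was called without replicate 1, with a background of 4.35%. Without replicates 2, 3 and 4 the counts were 5, 5 and 6 in ineffective Saranac (backgrounds of 15.6%, 16.5% and 17.9%) and 3, 5 and 4 in effective Saranac (backgrounds of 11.3%, 9.48% and 11.3%). CPM values below are scaled by library totals and the fold changes by edgeR's TMM factors: in ineffective Agate the mean log2(CPM + 1) of the 16039 genes was higher by 0.31 at 600 ppm on the first scale and by 0.03 on the second.

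Of the 2 members that rose in ineffective Agate, MsG0880043584.01 also rose in both Saranac lines. It had 26.3, 65.1 and 356 CPM at 600 ppm (n = 11), against 1.62, 20.1 and 102 CPM at 420 ppm (n = 10), and all 11 libraries at 600 ppm lay above the median at 420 ppm although the ranges overlapped. Its log2 fold change was 1.66 ± 0.60 (SE; edgeR adjusted p = 0.046) in ineffective Agate, 3.44 ± 0.69 in ineffective Saranac (edgeR adjusted p = 0.000105) and 2.00 ± 0.61 in effective Saranac (edgeR adjusted p = 0.013), and in effective Agate it was 1.41 ± 0.58 (edgeR adjusted p = 0.093). The call in effective Saranac was lost without replicate 2 (adjusted p = 0.105). The call in ineffective Agate was lost with the replicate number as a block (adjusted p = 0.055) and without any 1 replicate number (adjusted p = 0.0715 to 0.176).

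MsG0380014558.01 had 5.14, 19.8 and 102 CPM at 600 ppm in ineffective Agate, against 1.97, 6.09 and 17.4 CPM at 420 ppm. At 600 ppm 10 of 11 libraries lay above the median at 420 ppm, with overlapping ranges. The log2 fold change was 1.499 ± 0.41 (edgeR adjusted p = 0.0068) in ineffective Agate, -0.25 ± 0.39 in effective Agate, 0.14 ± 0.40 in ineffective Saranac and 0.28 ± 0.40 in effective Saranac. The difference between ineffective Agate and the mean of the other lines was 1.45 ± 0.47 and did not pass the test (edgeR adjusted p = 0.16). Without replicate 1, 2 or 4 the call in ineffective Agate was lost (log2 fold change 0.93, 1.29 and 1.45; adjusted p = 0.134, 0.0743 and 0.102).

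Among the members that fell, MsG0280009528.01 had 0.307, 2.74 and 50.4 CPM at 600 ppm in ineffective Agate, against 0.160, 54.4 and 262 CPM at 420 ppm. All 11 libraries at 600 ppm lay below the median at 420 ppm, and 1 library at 420 ppm, replicate 1 at 16 mM, was lower than all of them. That is the library of largest residual variance named above. The log2 fold change was -4.27 ± 0.73 (edgeR adjusted p = 1.85e-05) in ineffective Agate, -2.59 ± 0.68 in effective Agate (edgeR adjusted p = 0.0055), -1.93 ± 0.66 in ineffective Saranac (edgeR adjusted p = 0.025) and -0.93 ± 0.65 in effective Saranac (edgeR adjusted p = 0.35). The call in effective Agate was lost without replicate 1 (adjusted p = 0.0647). Within ineffective Agate it was the 1 member called at 10 mM, with a log2 fold change of -6.56 ± 1.33 (edgeR adjusted p = 0.0027), a call that was lost without replicate 4 (adjusted p = 0.115).

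MsG0180002222.01 had the largest fold change of the members in ineffective Agate, and few libraries carried it. It had 0.514, 0.997 and 2.75 CPM at 600 ppm, against 0.0534, 1.14 and 917 CPM at 420 ppm. The medians were alike: 4 libraries at 420 ppm stood far above the rest, with 917 and 72.7 CPM at 6 mM, 21.5 CPM at 10 mM and 15.5 CPM at 16 mM, and the other 6 held at most 1.27 CPM. The log2 fold change was -4.57 ± 0.66 (edgeR adjusted p = 8.93e-07), although only 7 of 11 libraries at 600 ppm lay below the median at 420 ppm. In limma-trend it was -2.28 (adjusted p = 0.0060), and without the library of 917 CPM, replicate 4 at 6 mM and 420 ppm, limma-trend gave -1.55 (adjusted p = 0.058). Without the library of 21.5 CPM, replicate 4 at 10 mM and 420 ppm, it gave -1.69 (adjusted p = 0.055). In no library of the other lines did it pass 2.20 CPM. It thus passed the filter of a mean CPM of 2 only through the high ineffective Agate libraries at 420 ppm. Nothing is therefore read from its fall as a test.

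The remaining called members fell, and both also fell elsewhere. MsG0380013179.01 had 0.0539, 1.19 and 2.25 CPM at 600 ppm in ineffective Agate, against 0.276, 5.14 and 35.5 CPM at 420 ppm, and it was the only member called in all 4 lines. Its log2 fold change was -3.44 ± 0.78 in ineffective Agate, -2.09 ± 0.76 in effective Agate, -2.99 ± 0.80 in ineffective Saranac and -2.28 ± 0.79 in effective Saranac (edgeR adjusted p = 0.00097, 0.0496, 0.0036 and 0.033 in that order of lines). The call in ineffective Saranac was lost without replicate 4 (adjusted p = 0.0615). MsG0480023590.01 had 1.35, 2.18 and 11.99 CPM at 600 ppm in ineffective Agate, against 1.12, 10.2 and 38.5 CPM at 420 ppm, with a log2 fold change of -2.37 ± 0.63 (edgeR adjusted p = 0.0053) there and of -1.98 ± 0.63 in ineffective Saranac (edgeR adjusted p = 0.015). The call in ineffective Saranac was lost without replicate 3 or 4 (adjusted p = 0.089 and 0.52).

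Over the 4 lines 22 members were called in at least 1 line, against 42.5% of all genes, and 58 in none. In all 4 lines 1 member was called, against 4.2% of all genes, and in opposite directions in different lines 0 members by edgeR, against 0.607% of all genes. Of the 6 members called in ineffective Agate, 4 were called the same way in another line, against 78.6% of the genes called there. MsG0480022878.01 rose in effective Saranac to 3.78, 34.7 and 135 CPM at 600 ppm, against 0.959, 6.30 and 14.8 CPM at 420 ppm (log2 fold change 2.53 ± 0.62, edgeR adjusted p = 0.0022), and gave -1.004 ± 0.59 in ineffective Agate (edgeR adjusted p = 0.26). MsG0580024443.01 rose in ineffective Saranac to 0.376, 19.3 and 374 CPM at 600 ppm, against 0, 1.18 and 9.68 CPM at 420 ppm (log2 fold change 3.49 ± 0.94, edgeR adjusted p = 0.0038), and gave 2.27 ± 0.88 in ineffective Agate (edgeR adjusted p = 0.063). Both calls were lost without replicate 2 (adjusted p = 0.0536 and 0.0607).

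In effective Agate, MsG0780040427.01 and MsG0480023520.01 rose. MsG0780040427.01 had 59.9, 186 and 754 CPM at 600 ppm, against 15.8, 65.1 and 347 CPM at 420 ppm (log2 fold change 1.19 ± 0.39, edgeR adjusted p = 0.026), and in ineffective Agate, at 165, 660 and 1219 CPM against 45.9, 152 and 1212 CPM, it gave 0.99 ± 0.40 (edgeR adjusted p = 0.074). MsG0480023520.01 had 9.08, 18.3 and 31.9 CPM at 600 ppm, against 3.91, 7.14 and 14.9 CPM at 420 ppm (log2 fold change 0.97 ± 0.25, edgeR adjusted p = 0.0043). In ineffective Agate MsG0480023520.01 gave 0.29 ± 0.25 (edgeR adjusted p = 0.48). Both calls in effective Agate were lost without replicate 1 (adjusted p = 0.266 and 0.123), and that of MsG0780040427.01 also without replicate 2 or 4 (adjusted p = 0.247 and 0.0621).

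Among the members called lower in the effective lines, MsG0580027678.01 had in effective Agate a fall at 600 ppm (log2 fold change -2.29 ± 0.71, edgeR adjusted p = 0.020), where it had 14.4, 21.8 and 36.3 CPM at 600 ppm, against 17.5, 24.98 and 2683 CPM at 420 ppm. The call rests on the 2 high libraries, both at 420 ppm, and was lost in limma-trend (adjusted p = 0.233) and without replicate 3 or 4 in edgeR (adjusted p = 0.145 and 0.124). MsG0480022344.01 was called lower in effective Saranac (-3.97 ± 0.89, edgeR adjusted p = 0.00086), with 0.134, 0.532 and 1.91 CPM at 600 ppm, against 0.0488, 1.10 and 75.5 CPM at 420 ppm. Without replicate 2 its log2 fold change was -1.41 (adjusted p = 0.34), and the call was lost in limma-trend (adjusted p = 0.113). MsG0880042422.01 was called lower there too (-3.93 ± 1.14, edgeR adjusted p = 0.0096), with 0, 0.0724 and 2.76 CPM at 600 ppm, against 0, 0.468 and 21.02 CPM at 420 ppm, and lost the call without replicate 2 or 4 (adjusted p = 0.16 and 0.23) and in limma-trend (adjusted p = 0.112).

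**Figure D5:**
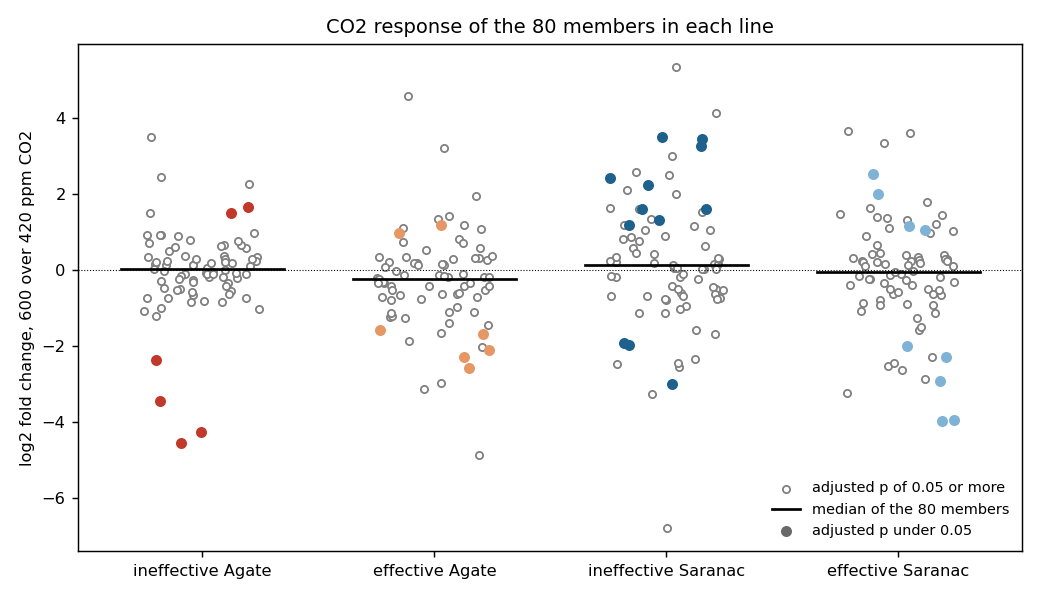
Log2 fold change of the 80 members between 600 and 420 ppm CO2 in each line, from edgeR. Filled points have an adjusted p under 0.05, open points do not, and black bars are the median over the members, which lies near 0 in ineffective Agate. Ineffective Agate has 6 filled points, 2 above and 4 below 0.

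Whether the CO2 response of ineffective Agate differed from that of the other lines was tested in the same model. Against the mean of the other 3 lines 1 of 80 members differed, with a background of 0.291%, and against effective Agate 2 differed, with a background of 0.992%. Both backgrounds depend on single replicates: without replicates 1, 2, 3 and 4 in turn, edgeR called 1, 2, 34 and 0 genes against the mean of the other lines and 20, 13, 377 and 75 against effective Agate, where all libraries gave 71 and 242. MsG0180002222.01 was called in both, with a difference in log2 fold change of -4.35 ± 0.72 (edgeR adjusted p = 0.0020) and of -4.14 ± 0.87 (edgeR adjusted p = 0.0089). Both rest on the 4 libraries named above, through which the gene also passed the filter on mean CPM. Limma-trend gave -1.98 and -1.92 (adjusted p = 0.31 and 0.34). Without replicate 4 edgeR gave -1.87 and -1.69 (adjusted p = 0.36 and 0.49).

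The other member called against effective Agate was MsG0280010142.01. In ineffective Agate it had 7.04, 31.7 and 146 CPM at 600 ppm, against 6.93, 18.3 and 111 CPM at 420 ppm, a log2 fold change of 0.65 ± 0.44. In effective Agate it had 4.61, 6.67 and 9.80 CPM at 600 ppm, against 3.72, 8.11 and 84.5 CPM at 420 ppm, a log2 fold change of -1.68 ± 0.44. The difference was 2.34 ± 0.62 (edgeR adjusted p = 0.046) and was lost with the replicate number as a block (adjusted p = 0.0525), without any 1 replicate number (adjusted p = 0.0582 to 0.329) and in limma-trend (adjusted p = 0.32).

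At single nitrate levels of ineffective Agate, 600 ppm changed 2 members at 6 mM (background 6.52%) and 1 at 10 mM (background 2.48%). At 16 mM 0 members were called (background 0.492%), and 5 members and 3620 of the 24386 genes had an unadjusted p under 0.05. DESeq2 called 1 member at 16 mM (3.59% of all genes) and limma-trend 0 (0.533% of all genes). The members called at 6 mM were MsG0180002222.01 (-8.87 ± 1.28, edgeR adjusted p = 1.61e-05) and MsG0380013179.01 (-4.89 ± 1.36, edgeR adjusted p = 0.021). Without replicate 4 the value of MsG0180002222.01 was -5.72 (adjusted p = 0.038), and MsG0380013179.01 lost its call without any 1 replicate number (adjusted p = 0.0507 to 0.183). A difference in CO2 response between 16 and 6 mM was called for 0 members (background 0.0041%). For this difference 3 members and 1447 of the 24386 genes had an unadjusted p under 0.05. DESeq2 called 1 member (0.693% of all genes) and limma-trend 0 (0% of all genes).

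Between nitrate levels in ineffective Agate, the same edgeR test called no member and no gene, which does not show that none changed. Between 10 and 6 mM 0 members were called (background 0%). For this contrast 6 members and 2382 of the 24386 genes had an unadjusted p under 0.05. DESeq2 called 2 members and 292 of the 24386 genes, and limma-trend 0 members (0% of all genes). Between 16 and 6 mM 0 members were called (background 0%), and 7 members and 2036 of the 24386 genes had an unadjusted p under 0.05. DESeq2 called 4 members (0.873% of all genes) and limma-trend 0 (0% of all genes). Averaged over the members, log2(CPM + 1) in ineffective Agate libraries was 3.60 ± 0.24 at 6 mM, 3.59 ± 0.42 at 10 mM and 3.57 ± 0.25 at 16 mM (SD, n = 7 each), which differ by less than their spread. It was 3.72 ± 0.27 at 600 ppm (SD, n = 11) and 3.44 ± 0.26 at 420 ppm (SD, n = 10), a difference of 0.28, against one of 0.31 for all 16039 genes. The highest ineffective Agate library was at 600 ppm for 57 of the 80 members (71.25%) and for 57.5% of all genes. With TMM-scaled CPM, chosen after the data were seen, the members averaged 3.54 ± 0.24 at 600 ppm and 3.52 ± 0.21 at 420 ppm, and the highest library was at 600 ppm for 40 of the 80 members and for 40.015% of all genes.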

How the data were processed

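Leaf polyA RNA was made into libraries with the Kapa Hyper Stranded mRNA kit, per the labels' protocols. The authors deposited raw read counts per gene, and the submitters' processing notes name featureCounts. The aligner, genome build, annotation, strand setting and tool version: not given in the sources used here. Reads of near-identical gene copies may be split between them. Members and lists were chosen with earlier results of these data known. Groups follow the labels, and 1 library whose labels contradict each other was left out of all comparisons. CPM, scores, gaps and correlations were computed in Python 3.11.15. Contrasts were tested with edgeR 4.0.16 (R 4.3.3; 24 groups in 1 model, TMM scaling, filterByExpr, robust quasi-likelihood F test) and Benjamini-Hochberg adjustment over 24386 genes, with SE taken as the log2 fold change over the root of F. The edgeR fit was also run on counts simulated with a single mean per gene, changed by CO2 in ineffective Agate for some genes. That simulation did not model members that fall into high and low libraries, and nothing is read from it. Named are the 6 members of highest score, those at the border, those of highest level and of least and most spread, and the 2 members of largest change in each direction per contrast, besides genes stated to be chosen later. Alternatives were DESeq2 1.42.0, limma-trend 3.58.1 (prior count 2), DESeq2 size factors, no filter, the replicate number as a block, leaving out libraries, and other scorings.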

Additional observations from a re-analysis of the deposited data

Results flagged for a closer look

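For 11 named members and for the mean over the 80 members, each of the 3 groups of 4 ineffective Agate libraries was searched for a library far from the other 3, in 36 searches, and 3 were found. The bound used passes about 5% of groups under a normal spread. Some of these members fall into high and low libraries or were named for extreme values, so that rate does not apply to them. MsG0580027678.01 had 24.8 CPM in 1 library at 10 mM and 600 ppm, and the other 3 had 1874 to 2994 CPM. MsG0180005882.01 had 0 CPM in 1 library at 16 mM and 420 ppm, and the other 3 had 4.69 to 7.14 CPM. MsG0380014558.01 had 17.4 CPM in 1 library at 16 mM and 420 ppm, and the other 3 had 2.39 to 2.76 CPM.

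A difference in CO2 response between ineffective Agate and other lines was called by edgeR for 2 members. For MsG0180002222.01 the log2 fold change in ineffective Agate was lower than the mean of the other lines by 4.35 units (difference -4.35, edgeR adjusted p = 0.0020) and than effective Agate by 4.14 units (difference -4.14, edgeR adjusted p = 0.0089). In limma-trend neither passed the test. For MsG0280010142.01 the difference from effective Agate was 2.34 (edgeR adjusted p = 0.046), with a lower value at 600 ppm in effective Agate. That call was lost in 29 of 32 alternatives, among them limma-trend, the replicate block and leaving out any 1 replicate number.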

How the results depend on the processing

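Of 399 counts of members recomputed, 289 stayed within 1.5 times the reported count, and of 704 values of named members none reversed, 525 kept their call and 179 lost it. Of the 32 alternatives per contrast, 21 were limma-trend fits that each left out 1 ineffective Agate library. For contrasts within another line, these fits left out no library of the contrast. The totals thus count like fits many times and do not measure robustness. The Wald test of DESeq2 called 9 members in ineffective Agate (21.2% of all genes) and 14 in effective Agate (18.02%). It called 21 in ineffective Saranac (28.4%) and 17 in effective Saranac (21.8%). For the differences from the mean of the other lines and from effective Agate it called 3 and 7. It called 4 at 6 mM, 2 at 10 mM, 1 at 16 mM and 1 for CO2 by nitrate. For nitrate 10 and 16 against 6 mM it called 2 and 4, and the cause was not tested. The difference from effective Agate was called for 1 member with the replicate block and 1 without the filter. It was called for 1 without replicates 1 of ineffective Agate at 16 mM and at 10 mM, both at 420 ppm (the 2 with most residual variance). Limma-trend called 0, and also 0 against the mean of the other lines. Without those 2 libraries 2 were called at 10 mM (3.23% of all genes). In edgeR, leaving out a replicate number or a library gave 3 to 7 members in ineffective Agate, 1 to 6 in effective Agate, 5 to 12 in ineffective Saranac and 3 to 9 in effective Saranac. The same fits called 1589 to 4559, 1073 to 3627, 3865 to 5518 and 2338 to 4506 of all genes in those lines. They gave 0 to 2 members for either difference (0 to 65 genes against the mean of the other lines, 13 to 377 against effective Agate). At 6, 10 and 16 mM they gave 1 to 2, 0 to 1 and 0 members (39 to 1496, 49 to 610 and 1 to 99 genes). For CO2 by nitrate they gave 0 to 1 members (0 to 3 genes). For nitrate 10 and 16 against 6 mM they gave 0 and 0 to 1 members (0 to 1 and 0 to 3 genes). In limma-trend 7, 5, 11 and 6 members were called in the lines with all libraries (16.8%, 13.5%, 24.7% and 17.8% of all genes). Leaving out 1 ineffective Agate library gave 3 to 8, 4 to 5, 11 to 12 and 6 to 7 members (2906 to 4625, 3249 to 3500, 5944 to 6208 and 4285 to 4541 genes). It gave 0 members for either difference (0 to 39 genes against the mean of the other lines, 9 to 185 against effective Agate). At 6, 10 and 16 mM it gave 2 to 5, 0 to 2 and 0 members (836 to 2312, 74 to 683 and 13 to 295 genes). For each of the others it gave 0 to 1 members, with at most 15 genes. Other scorings kept 52 members with a pseudocount of 5, 47 with a mean of at least 5 CPM, 47 with medians, 47 from 420 ppm alone and 48 from 600 ppm alone, and 52 to 79 with libraries left out. Over all genes, the difference from the mean of the other lines was called for 71 genes and for 25 with the block, 487 by DESeq2, 12 without the filter, 0 by limma-trend and 7 without the 2 libraries of most residual variance, and the difference from effective Agate for 242, 161, 896, 134, 47 and 106. DESeq2 also moved 6 mM (1590 to 2653 genes), 10 mM (604 to 1218), 16 mM (120 to 876; 39 without the filter), CO2 by nitrate (1 to 169) and nitrate (0 to 292 and 213). Deviations of libraries with the same replicate number had a median r of -0.0055 to 0.0017, against 0.00099 for different numbers. These medians run over all groups, so they do not show whether the numbers pair libraries within a line or a CO2 level. The main fit did not pair libraries. The replicate block called 6, 7, 11 and 8 members in ineffective Agate, effective Agate, ineffective Saranac and effective Saranac (16.9%, 14.3%, 24.7% and 17.9% of all genes).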

Other observations

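The library whose labels contradict each other, and which is in no group, had a total count of 19724100. Its mean log2(CPM + 1) over the 80 members was 2.05, and 54 members reached 1 CPM. At or above the median of ineffective Agate were 8 members, and below every ineffective Agate library 14. It held 0 CPM of MsG0480021827.01, 0.608 CPM of MsG0480023458.01, 18.6 CPM of MsG0580027678.01, 5.32 CPM of MsG0580028287.01, 0 CPM of MsG0180005882.01 and 1.62 CPM of MsG0180000934.01.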
